A study of Mus musculus with 6 samples.

Results

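The genes described here are the ATP-binding cassette (ABC) transporters Abcb1a and Abcb1b, their chromosomal neighbour Rundc3b, and 5 further transporters of drugs and lipids, Abcb4, Abcc1, Abcg1, Abcg2 and Abca1, in CD4 single-positive thymocytes of the mouse with and without the transcriptional repressor Bach2. They were selected by gene symbol, 1 probe set per gene, and make up 8 of the 19938 genes measured under a single symbol. Abcb1a, Abcb1b and Rundc3b were chosen because they were higher together in the knockout, so their differences are a description and carry no test here. The other 5 were chosen as transporters to compare with. No condition was set on their values, but earlier results of these data were known.

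The study hybridised RNA of 3 wildtype and 3 Bach2 knockout samples to 1 array each. Both genotypes came from mixed bone marrow chimeras on a C57BL/6 background: male Rag1 knockout recipients, which lack T and B cells of their own, were irradiated at 8 weeks of age and given equal parts of marrow from 8-week-old male Bach2 knockout (Ly5.1-) and wildtype (Ly5.1+) donors, depleted of mature lineages. After 2 months, the CD4 single-positive thymocytes were sorted into the 2 genotypes by Ly5.1, an allele of CD45 (Ptprc), so that the allele went together with the genotype. The design text gives separate mice as the source of the 6 samples and calls the 3 of each genotype biological replicates. The sources used here do not say which part of Bach2 the knockout lacks.

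ABC transporters are membrane proteins that use ATP to move substrates across a membrane. P-glycoprotein, which a pair of genes, Abcb1a and Abcb1b, encodes in the mouse, pumps a wide range of hydrophobic drugs and dyes out of cells and is known in T cells and other lymphocytes for the efflux of fluorescent dyes. Abcc1 exports glutathione conjugates and leukotriene C4, Abcg2 exports drugs and urate, Abca1 and Abcg1 pass cholesterol to lipoproteins under control of the liver X receptors (LXR), and Abcb4 carries phosphatidylcholine into bile.

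The array values are on a log2 scale, so a difference of 1 is a 2-fold change. Levels are compared between arrays and not between genes, apart from the median of all deposited values as a rough mark of low signal. As a check of the labels, Bach2 measured 7.89, 8.20 and 8.05 on wildtype and 6.50, 6.42 and 6.52 on knockout replicates 1 to 3. All 9 measured markers of CD4 T cells had a mean above the median of all deposited values (4.94). So did all 8 markers of regulatory T cells and 7 of 8 of CD8 and double-positive thymocytes. For natural killer and NKT cells it was 4 of 8, and for stromal, epithelial and endothelial cells 3 of 8. For macrophages and monocytes it was 2 of 9, for B cells 2 of 5 and for dendritic cells 0 of 6. Over all genes, 70 were higher (0.351%) and 43 lower (0.216%) in the knockout at an adjusted p under 0.05, which is the call used throughout (limma, Benjamini-Hochberg adjustment over all 19938 genes). These are bulk samples, in which fewer cells of a type and less RNA per cell cannot be told apart.

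Abcb1a, Abcb1b and Rundc3b lie side by side on chromosome 5. In the RefSeq annotation of GRCm38.p6 Rundc3b runs on the minus strand and its gene body overlaps that of Abcb1a, on the plus strand, while Abcb1b follows Abcb1a on the plus strand without overlap. The RefSeq promoter table holds windows for 6 of the 8 genes. Bases ahead of the annotated start are shown for the 3 genes that were higher together, to let their promoters be compared. The Abcb1a and Abcb1b windows hold 250 bases each, at chr5:8566841-8567090 and chr5:8797897-8798146 on the plus strand. The Rundc3b stretch holds the 118 bases at chr5:8623085-8623202 on the minus strand that lie outside its annotated gene body. Capitals mark the matches found by a search on both strands for TGAGTCA (the core bound by AP-1 and by Bach-Maf dimers), TGCTGA (a part of the Maf recognition element), CCAAT (the CCAAT box) and GGGCGG (the GC box). No match of these letters overlaps another.
Abcb1a: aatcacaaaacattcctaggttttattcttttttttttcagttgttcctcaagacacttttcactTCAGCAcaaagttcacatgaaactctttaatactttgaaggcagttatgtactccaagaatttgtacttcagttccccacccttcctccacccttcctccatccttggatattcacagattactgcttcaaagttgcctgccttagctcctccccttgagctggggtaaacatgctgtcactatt
Abcb1b: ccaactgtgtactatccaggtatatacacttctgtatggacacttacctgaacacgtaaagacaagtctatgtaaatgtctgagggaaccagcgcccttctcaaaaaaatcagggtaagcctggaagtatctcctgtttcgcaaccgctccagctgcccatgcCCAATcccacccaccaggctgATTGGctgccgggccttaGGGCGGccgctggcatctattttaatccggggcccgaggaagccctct
Rundc3b: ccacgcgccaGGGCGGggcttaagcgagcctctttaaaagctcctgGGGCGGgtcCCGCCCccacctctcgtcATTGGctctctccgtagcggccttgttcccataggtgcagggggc

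The 3 promoters differed in their letters. The Abcb1a window lies inside the gene body of Rundc3b and held 1 TGCTGA match, on the opposite strand, and no CCAAT or GC box. The Abcb1b window held 2 CCAAT matches, 1 of them on the opposite strand, and 1 GGGCGG match. The Rundc3b window of 250 bases held 1 CCAAT and 5 GGGCGG matches, of which 1 and 3 lie in the stretch shown. TGAGTCA was in 0 of these 3 windows. Among all 32851 RefSeq windows of 250 bases, 4.46% held TGAGTCA, 16.1% TGCTGA, 33.8% CCAAT and 32.7% GGGCGG. A match is a run of letters, not a bound site.

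Abcb1a (probe set 10519527) measured 5.45, 5.82 and 5.86 on wildtype and 7.22, 7.13 and 7.40 on knockout arrays. All 3 knockout values lay above all 3 wildtype values, the nearest pair 1.26 apart. Wildtype cells averaged 5.71 ± 0.23 and knockout cells 7.25 ± 0.14 (SD, n = 3 each), a difference of 1.54 on the log2 scale, or 2.90-fold.

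Abcb1b (probe set 10519555), the second gene for P-glycoprotein, measured 4.51, 4.93 and 4.91 on wildtype and 6.16, 5.86 and 6.25 on knockout arrays. The groups did not overlap, with 0.93 between the lowest knockout and the highest wildtype value. Wildtype cells averaged 4.78 ± 0.24 and knockout cells 6.09 ± 0.20, a difference of 1.31, or 2.47-fold. The coding sequences of this pair of genes are closely related, and probes of one may bind labelled material of the other. The separate values of Abcb1a and Abcb1b are therefore uncertain.

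Rundc3b (probe set 10528090), which encodes a protein with a RUN domain and is no transporter, measured 7.03, 6.84 and 7.06 on wildtype and 7.97, 7.90 and 8.04 on knockout arrays. The groups were 0.85 apart at their nearest, on means of 6.97 ± 0.12 and 7.97 ± 0.07, a difference of 1.00, or 2.00-fold. Rundc3b had the smallest difference and the narrowest spread of the 3. For comparison, the knockout values lay wholly above the wildtype values for 5.13% of all genes, from which nothing is read here since these 3 genes were chosen on this contrast. The Rundc3b gene body overlaps that of Abcb1a on the other strand, and the sources used here do not say whether the labelled material kept its strand. Signal from one gene in the other's probe set therefore cannot be told apart.

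Abcb1a and Abcb1b lay on the same side of their mean on each wildtype array, and Rundc3b did so with them on 1 of the 3. Wildtype replicate 1 lay 0.26 below the wildtype mean for Abcb1a and 0.27 below it for Abcb1b, but 0.05 above it for Rundc3b. Wildtype replicate 3 lay above the mean for all 3 genes, by 0.15, 0.13 and 0.08. Knockout replicate 2 was the lowest and replicate 3 the highest knockout array for all 3 genes. With 1 array left out at a time, the difference ran from 1.41 to 1.61 for Abcb1a, from 1.17 to 1.42 for Abcb1b and from 0.93 to 1.04 for Rundc3b.

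**Figure D1:**
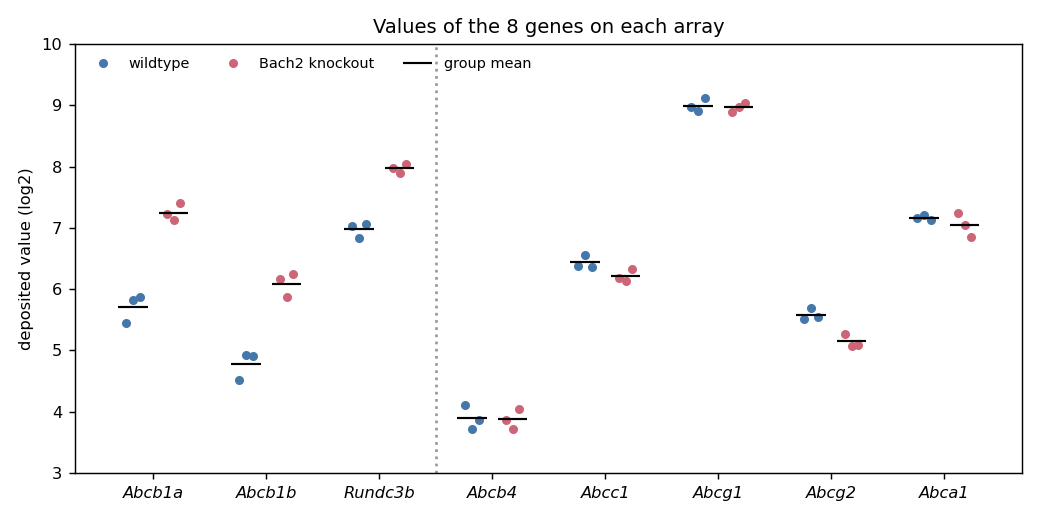
Deposited log2 value (y axis) of each of the 8 genes (x axis) on the 3 wildtype (blue) and 3 Bach2 knockout (red) arrays; black lines are group means. Left of the dotted line are the 3 genes chosen for their difference, whose groups lie apart by 0.85 or more; right of it are the comparison transporters, among which the groups of Abcg2 and Abcc1 lie apart with the knockout below.

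The other neighbours of Abcb1a showed small differences. Of the 18 other genes among the 10 measured on either side of Abcb1a, 0 were called (limma; 0 at an unadjusted p under 0.05), with a median difference of 0.00 and a range from -0.14 to 0.21. Over all genes 0.567% were called in either direction and 6.91% had an unadjusted p under 0.05. The 2 groups did not overlap for 3 of the 18 neighbours, or 16.7%, against 11.7% of all genes. The mean over the 6 arrays was above the median of all deposited values for only 6 of the 18. For the other neighbours a low signal limits what can be seen.

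On the Rundc3b side, the mitochondrial carrier Slc25a40 differed by 0.21 ± 0.17 (standard error of the limma fit here and below). Dbf4, the regulatory subunit of the Cdc7 kinase that starts DNA replication, differed by -0.14 ± 0.15, and Adam22 by -0.05 ± 0.11. On the other side, directly next to Abcb1b, stands Abcb4. Its values were 4.11, 3.71 and 3.86 on wildtype and 3.86, 3.72 and 4.05 on knockout arrays, and the groups overlapped. Its difference was -0.02 ± 0.13 (limma adjusted p = 0.998), with a 95% interval from -0.30 to 0.27. Its mean over the 6 arrays, 3.89, is below the median of all deposited values, so a change in a transcript that is scarce or absent here may not be visible.

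Beyond Abcb4, Crot, a peroxisomal carnitine acyltransferase, measured 7.75, 7.99 and 7.91 on wildtype and 8.00, 8.15 and 8.08 on knockout arrays, without overlap. Its difference of 0.19 ± 0.10 did not pass (limma adjusted p = 0.822). Tmem243 differed by 0.12 ± 0.11. Rundc3b, Abcb1a and Abcb1b, chosen because they were higher in the knockout, stand between Slc25a40 and Abcb4. Neither Slc25a40 nor Abcb4 was called, and Abcb4 had a low signal.

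**Figure D2:**
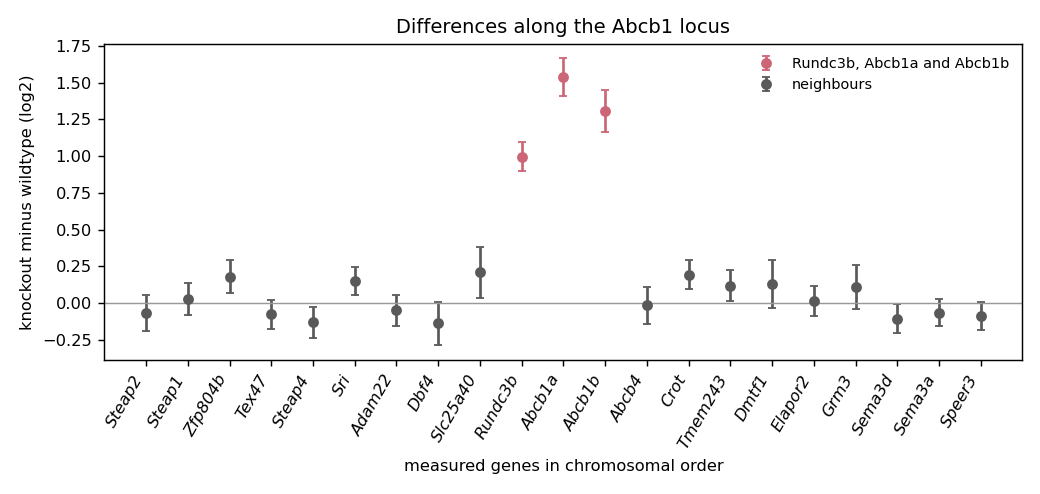
Knockout minus wildtype difference on the log2 scale (y axis) of 21 measured genes in chromosomal order around Abcb1a (x axis, gene symbols; distances are not to scale); bars are limma standard errors. Rundc3b, Abcb1a and Abcb1b (red) lie between 1.00 and 1.54, and the 18 others (grey) between -0.14 and 0.21. Of the 18, only 6 have a mean above the median of all deposited values.

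Among the transporters chosen for comparison, 0 of 5 were called in either direction (limma; 1 at an unadjusted p under 0.05). Over all genes 0.567% were called and 6.91% had an unadjusted p under 0.05, so the count of 0 says little about these 5. Abcg2 (probe set 10538640), the breast cancer resistance protein, came nearest to a call, and in the direction opposite to Abcb1a. It measured 5.52, 5.69 and 5.55 on wildtype and 5.27, 5.07 and 5.10 on knockout arrays. All 3 knockout values lay below all 3 wildtype values, the nearest pair 0.24 apart. Wildtype cells averaged 5.58 ± 0.09 and knockout cells 5.15 ± 0.11 (SD, n = 3 each). Over all genes, the knockout values lay wholly below the wildtype values for 6.57%. The difference of -0.44 ± 0.10 had a 95% interval from -0.66 to -0.21 and did not pass over all genes (limma adjusted p = 0.135; unadjusted p = 0.00145). Leaving out 1 array at a time gave -0.50 to -0.39, with an adjusted p from 0.171 to 0.591.

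Abcc1 (probe set 10433735), the multidrug resistance protein that exports glutathione conjugates, measured 6.38, 6.56 and 6.36 on wildtype and 6.18, 6.14 and 6.33 on knockout arrays. The groups were apart by 0.03 only, with the knockout lower. The difference of -0.22 ± 0.10 had a 95% interval from -0.44 to 0.01 and did not pass (limma adjusted p = 0.768).

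The cholesterol exporters differed less. Abcg1 (probe set 10443730) measured 8.96, 8.90 and 9.12 on wildtype and 8.89, 8.98 and 9.03 on knockout arrays, and the groups overlapped. Its difference was -0.03 ± 0.10, with a 95% interval from -0.25 to 0.19 (limma adjusted p = 0.998). Abca1 (probe set 10512949) measured 7.16, 7.21 and 7.13 on wildtype and 7.24, 7.05 and 6.86 on knockout arrays. Its knockout values spread on both sides of the wildtype values, with an SD of 0.19 against 0.04. Its difference was -0.11 ± 0.11, with a 95% interval from -0.36 to 0.14 (limma adjusted p = 0.972). Abca1 is on chromosome 4, as is Bach2, with 176 measured genes between them. The other 7 genes are on other chromosomes than Bach2 and Ptprc.

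The Abca1 window holds a direct repeat of the kind LXR binds, shown because Abca1 is the standard LXR target. The match is at chr4:53159947-53159962, read on the plus strand, opposite to the gene, and capitals mark the repeated parts.
Abca1 site: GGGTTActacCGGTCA
The letters searched on both strands, NGGTNA and NGGTCA with any 4 bases between them, were set after this window had been read, and 0.177% of all RefSeq windows of 250 bases held a match. None of the windows of Abcb1a, Abcb1b, Rundc3b, Abcb4 or Abcg2 did.

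Among the 51 ABC family members analysed here, Abcb1a and Abcb1b had the largest differences, but they were chosen for their rise in this contrast. Nothing is read from their rank. Of the 49 measured genes other than Abcb1a and Abcb1b, 0 were called in either direction (limma; 3 at an unadjusted p under 0.05, or 6.12%, against 6.91% of all genes). With 0.567% of all genes called, the count of 0 says little about these 49. The groups did not overlap for 6 of the 49, or 12.2%, against 11.7% of all genes. Their differences ran from -0.44 to 0.25 with a median of -0.03, beside -0.01 over all genes, and 17 lay above 0, 31 below and 1 at 0. The mean over the 6 arrays was above the median of all deposited values for 22 of the 49, so for the others a low signal limits what can be seen.

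By role, the 7 other exporters of drugs and conjugates differed by -0.44 to 0.23. Abcg2 was the lowest. Abcc5, an exporter of cyclic nucleotides, was the highest at 0.23 ± 0.12, with 6.22, 6.48 and 6.15 on wildtype and 6.38, 6.52 and 6.63 on knockout arrays, so that the groups overlapped.

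Among the 11 lipid, sterol and bile exporters the range was -0.11 to 0.25. Abca2 measured 6.77, 6.92 and 6.95 on wildtype and 7.05, 7.28 and 7.05 on knockout arrays, without overlap, and its difference of 0.25 ± 0.10 did not pass (limma adjusted p = 0.672). Abca3, known from lung surfactant, differed by 0.16 ± 0.12. The peptide transporters of antigen presentation showed small differences, with Tap1 at -0.08 ± 0.12 and the lysosomal Abcb9 at -0.05 ± 0.10.

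Of the mitochondrial members, Abcb10 differed by -0.09 ± 0.12 and Abcb8 by -0.04 ± 0.11. Of the D family, the lysosomal Abcd4, which takes part in cobalamin export, differed by 0.11 ± 0.09 and the peroxisomal Abcd3 by 0.04 ± 0.10. The soluble members Abcf3 (0.10 ± 0.10) and Abcf2 (0.07 ± 0.09), the potassium channel regulator Abcc9 (0.07 ± 0.10) and the chloride channel Cftr (-0.08 ± 0.14) differed no more than that. Among the remaining members, Abcc12 (-0.24 ± 0.10) and Abca5 (-0.19 ± 0.10) had the smallest p-values and neither passed.

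**Figure D3:**
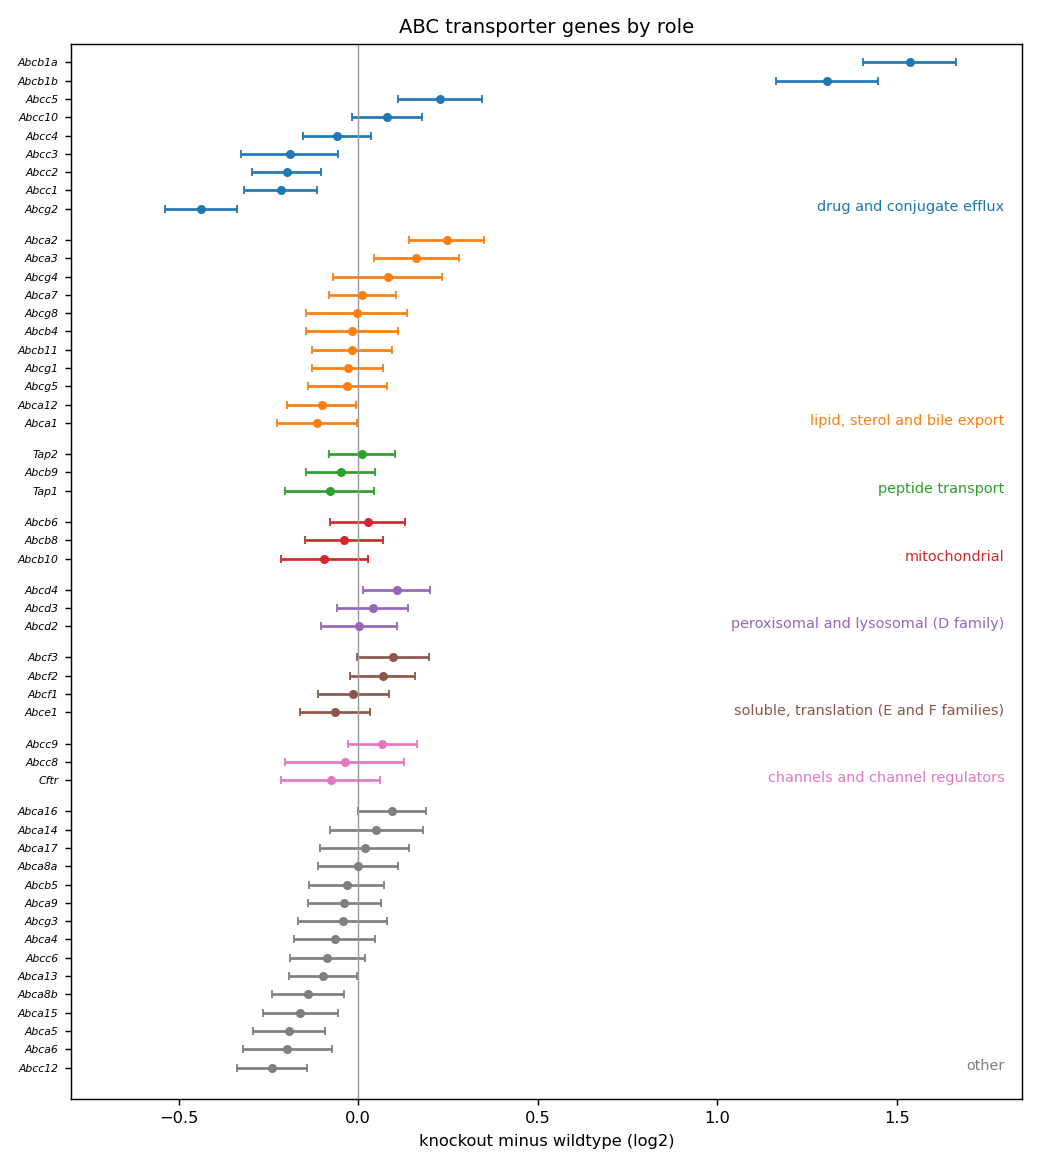
Knockout minus wildtype difference on the log2 scale (x axis) of the 51 measured ABC family genes (y axis), grouped and coloured by role; bars are limma standard errors. Abcb1a at 1.54 and Abcb1b at 1.31, chosen for their higher knockout values, are the points far to the right. The other 49 lie between -0.44 and 0.25.

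Pathways that govern or feed these transporters were described by the same fit. With 0.567% of all genes called in either direction, a count of 0 in lists this short says little. Of 13 measured genes of the LXR pathway 0 were called (limma; 2 at an unadjusted p under 0.05, or 15.4%, against 6.91% of all genes), with a median difference of 0.02 beside -0.01 over all genes. Apoe, the apolipoprotein that takes up exported cholesterol, measured 7.58, 7.17 and 7.09 on wildtype and 8.28, 7.96 and 7.70 on knockout arrays. The groups did not overlap, and the difference of 0.70 ± 0.17 did not pass (limma adjusted p = 0.158). Apoe is also abundant in macrophages, whose 9 measured markers had a mean level per array of 4.12 to 4.36 in wildtype and 4.29 to 4.67 in knockout cells. Of these 9 markers 1 was called higher and 0 lower (limma), against 0.351% and 0.216% of all genes. The called marker was Lyz2, the lysozyme of macrophages and other myeloid cells. It measured 5.68, 4.97 and 5.22 on wildtype and 7.03, 6.82 and 6.17 on knockout arrays. The groups did not overlap, and the difference was 1.39 ± 0.23 (limma adjusted p = 0.0256). Leaving out wildtype replicate 2 or 3 or knockout replicate 1 or 2 ended that call (adjusted p = 0.0823, 0.153, 0.0821 and 0.119), as did the fit without moderation (0.616) and the fit to all probe sets (0.298). C1qa, a complement component made by macrophages, was 0.42 ± 0.12 higher without overlap and was not called (limma adjusted p = 0.325). Itgam differed by -0.33 ± 0.12, also without overlap and not called (limma adjusted p = 0.528). Csf1r and Adgre1, which define macrophages, differed by 0.08 ± 0.11 and -0.06 ± 0.10. Of the 9 differences, 5 lay above 0 and 4 below. Only 2 of the 9 markers had a mean above the median of all deposited values, so low signal limits what can be seen. Lyz2, C1qa, Itgam, Csf1r and Adgre1 were named after their values were seen, and their part in the Apoe value was not tested. The retinoid receptor Rxra, the partner of LXR, differed by 0.27 ± 0.09 (limma adjusted p = 0.436). Nr1h3, which encodes LXR alpha and is named here after its values were seen, measured 5.80, 4.50 and 4.81 on wildtype and 4.43, 4.52 and 4.58 on knockout arrays. Wildtype replicate 1 was the high array, the groups overlapped, and the difference of -0.52 ± 0.26 did not pass (limma adjusted p = 0.794).

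Of 18 measured genes of cholesterol synthesis and uptake 0 were called (limma; 3 at an unadjusted p under 0.05, or 16.7%, against 6.91% of all genes), with a median difference of 0.00. Npc1, which moves cholesterol out of lysosomes, measured 7.57, 7.58 and 7.53 on wildtype and 7.81, 7.87 and 7.88 on knockout arrays. These groups were narrow and apart, yet the difference of 0.29 ± 0.09 did not pass (limma adjusted p = 0.343). The synthesis enzyme Cyp51 differed by 0.35 ± 0.12 (limma adjusted p = 0.525).

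Of 20 measured genes of xenobiotic and glutathione handling 0 were called (limma; 4 at an unadjusted p under 0.05, or 20.0%, against 6.91% of all genes), with a median difference of 0.00. The groups did not overlap for 5 of the 20, or 25.0%, against 11.7% of all genes. Gsta4 and Ahr, both lower, and Gsr, which was higher, lay close to the threshold. Gsta4, a glutathione transferase that detoxifies products of lipid peroxidation, measured 7.33, 6.85 and 6.82 on wildtype and 6.14, 6.22 and 5.53 on knockout arrays. The knockout values were all lower, and the difference was -1.04 ± 0.19 (limma adjusted p = 0.0536). With array weights, with median centring, with a prior that follows expression level, with the replicate number as a block or without dim genes, its adjusted p was 0.0479, 0.0484, 0.018, 0.0149 and 0.0423, so the call turns on the setting. Ahr, the aryl hydrocarbon receptor that induces drug-metabolizing enzymes, measured 6.05, 5.88 and 5.96 on wildtype and 5.35, 5.42 and 5.54 on knockout arrays, a difference of -0.52 ± 0.10 (limma adjusted p = 0.0552). It passed with array weights (adjusted p = 0.0299) and without dim genes (0.0289). Gsr, the glutathione reductase, named here after its values were seen, measured 6.31, 6.29 and 6.38 on wildtype and 6.73, 6.99 and 6.78 on knockout arrays. Its knockout values were all higher, by 0.51 ± 0.10 on the mean (limma adjusted p = 0.0706), and it passed without dim genes (0.0386).

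The xenobiotic receptors known for inducing Abcb1 genes in liver and gut were not called. Nr1i2, the pregnane X receptor, differed by 0.08 ± 0.12, and Nr1i3, the constitutive androstane receptor, by -0.10 ± 0.16. Both were named for that role after their values were seen. Their wildtype and knockout means, 4.27 and 4.35 for Nr1i2 and 4.72 and 4.62 for Nr1i3, lie below the median of all deposited values. A change in a scarce or absent transcript may thus not be visible. Of 11 measured carriers outside the ABC family 0 were called (limma; 1 at an unadjusted p under 0.05, or 9.09%, against 6.91% of all genes). Their median difference was 0.13 and 9 of 11 lay above 0, beside a median of -0.01 and 9203 of 19938 above 0 over all genes. The organic anion carrier Slco4a1 differed by 0.33 ± 0.11 (limma adjusted p = 0.499), and Spns1, a lysosomal lysophospholipid transporter, by 0.25 ± 0.14.

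**Figure D4:**
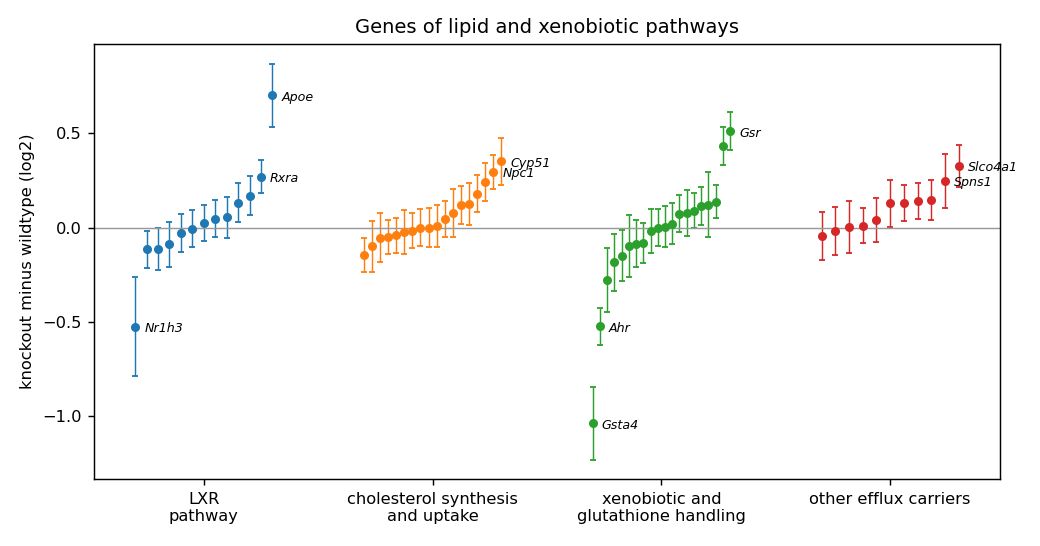
Knockout minus wildtype difference on the log2 scale (y axis) of the measured genes of 4 lists (x axis), each list ordered by difference; bars are limma standard errors and some of the genes are labelled by name. Gsta4 (-1.04), Apoe (0.70), Nr1h3 (-0.52) and Ahr (-0.52) lie farthest from 0, and none was called.

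The genes whose pattern over the 6 arrays was most like that of Abcb1a were found by the root mean square difference between profiles centred on their own mean, over 18252 named genes. This measure takes in the difference between genotypes that chose Abcb1a, so it describes and tests nothing. Abcb1b was the nearest, at 0.13 on the log2 scale. It was followed by Il10ra, the ligand-binding chain of the interleukin 10 receptor (0.17), the chemokine receptor gene Ccr4 (0.18), Ly96, which encodes the MD-2 partner of Toll-like receptor 4 (0.19), and Nbeal2 (0.20). Rundc3b ranked 17, at 0.32. All 5 of the nearest genes had their lowest or second-lowest value on wildtype replicate 1, where Abcb1a itself was lowest. The choice by likeness favours this, so nothing is read from it.

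**Figure D5:**
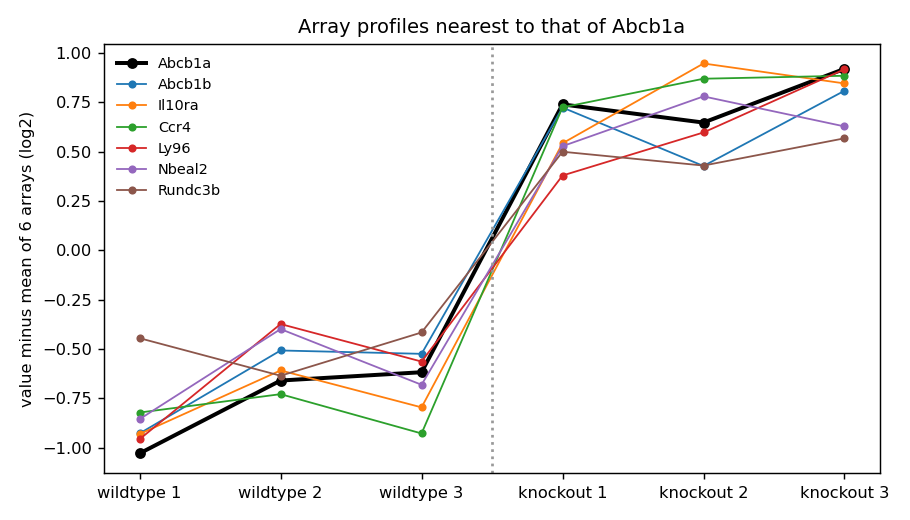
Value minus the mean of the 6 arrays on the log2 scale (y axis) on each array (x axis; arrays of 1 genotype have no order) for Abcb1a (black), the 5 genes nearest to it and Rundc3b. The profiles run below 0 in the wildtype and above 0 in the knockout arrays, and Rundc3b has the shallowest step, 1.00 against 1.54 for Abcb1a.

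Of the marker lists of further T and natural killer cells, the one of regulatory T cells held called genes. Of its 8 markers 5 were called lower and 0 higher (limma), against 0.216% and 0.351% of all genes. The 5 were Foxp3, Il2ra, Ikzf2, Lrrc32 and Nt5e. Leaving out 1 array at a time gave 1 to 7 lower calls (1 without wildtype replicate 3, 7 without wildtype replicate 1), and the fit without moderation and the fit to all probe sets gave 0. The 8 markers had a mean level per array of 7.05 to 7.89 in wildtype and 6.15 to 6.26 in knockout cells, with wildtype replicate 1, the array with the lowest Abcb1a and Abcb1b values, at the low end of the wildtype range. Of the 8 natural killer and NKT cell markers 0 were called (limma; 4 at an unadjusted p under 0.05, or 50.0%, against 6.91% of all genes). Their differences lay below 0 for 6 and above for 2, with a median of -0.33 beside -0.01 over all genes. List means were 5.01 to 5.16 in wildtype and 4.68 to 4.83 in knockout cells. Il2rb and Nkg7 differed most, by -0.76 ± 0.19 and -0.76 ± 0.22. The defining Klrb1c and Ncr1 differed by -0.06 ± 0.10 and 0.03 ± 0.10. Their wildtype means of 2.68 and 3.00 lie below the median of all deposited values, so a change may not be visible. Without wildtype replicate 1, 1 of these 8 was called lower. Of the 8 measured CD8 and double-positive thymocyte markers 0 were called (limma; 3 at an unadjusted p under 0.05, or 37.5%, against 6.91% of all genes). The list means overlapped, at 6.40 to 6.69 in wildtype and 6.57 to 7.65 in knockout cells. Rag1 differed by 1.27 ± 0.49 with overlap and Arpp21 by 0.95 ± 0.27 without. All 8 markers had differences above 0, with a median of 0.42 beside -0.01 over all genes. With the replicate number as a block, 1 of them was called higher. The part of these levels in the Abcb1a, Abcb1b, Rundc3b and Abcg2 values was not tested.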

How the data were processed

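Amplified, biotin-labelled RNA of sorted thymocytes was hybridised to arrays, per the labels' protocols. The authors deposited 1 log2 value per probe set and array; the submitters' processing notes name RMA and Partek, without versions. The log2 scale was read from the values, which run from 1.10 to 13.2. The sources used here do not name a genome build. RMA gives all arrays 1 distribution and so hides any global shift. The number of arrays, 3 per group, limits precision.

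Of 35556 probe sets, 21789 had 1 symbol in an annotation that can be old, 1621 several and 12146 none listed; 21698 of the first matched RefSeq (GRCm38.p6) by gene number, used for names and gene order. The probe set with the highest mean stood for a gene; the 8 genes described have 1 each.

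Differences were fitted with limma 3.58.1 (lmFit, eBayes, two-sided) in R 4.3.3 on 19938 genes, a procedure tested on simulated data; 95% intervals come from that fit. Matplotlib 3.10.9 drew the figures. The members and lists were chosen with earlier results of these data known. Named are the 8 genes, called genes of each ABC or pathway list or, with none called, the 2 with the smallest p, neighbours within 3 measured genes of the locus, the 5 profiles nearest to Abcb1a, ends of ranges, and genes said to be named after their values were seen; marker genes were also named so. Alternatives were other variance priors, no moderation, a replicate block, array weights, median centring, quantile normalization of the deposited values, no dim genes (mean at most 4.94), averaged probe sets, all probe sets and each array left out.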

Additional observations from a re-analysis of the deposited data

How the results depend on the processing

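The differences of Abcb1a, Abcb1b and Rundc3b moved by less than the spread between replicates in all 16 alternatives. Of the other 49 ABC genes 0, and of the 18 neighbours 0, were called in any of the 16. With 0.567% of all genes called in the fit used throughout, and fewer in some alternatives, these counts of 0 say little. Without dim genes Abcb4 gave no value. Abcb4 and Abcg1, never called, changed sign with single arrays left out (-0.11 to 0.09 and -0.08 to 0.03). In the LXR list 1 gene, Apoe, was called higher with the replicate block. In the xenobiotic and glutathione list 1 gene was called lower with the replicate block, with a prior that follows expression level and with median centring (Gsta4 each time), 2 were called lower with array weights and without dim genes (Gsta4 and Ahr), and 1, Gsr, was called higher without dim genes; the cause was not tested, except that leaving out dim genes tests fewer genes. Over all genes, 70 higher and 43 lower calls became 29 to 82 and 18 to 66 with 1 array left out (29 and 18 without wildtype replicate 3), 1 and 0 without moderation, 29 and 8 with all probe sets, and 78 lower with a prior that follows expression level. With the replicate block, 79 genes were higher and 55 lower. Deviations of same-numbered arrays correlated at 0.21, 0.11 and -0.07, and 3 of 6 arrays correlated best with their own number, so the numbers do not show a pairing. With 3 arrays a group, differences as small as those of Abcc1 or Abca2 did not pass the adjustment over all genes, although their groups did not overlap.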
